A study of Caenorhabditis elegans with 119 samples.

Results

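The dod genes of Caenorhabditis elegans carry the name "downstream of DAF-16", after the FOXO transcription factor that insulin signalling through the receptor DAF-2 keeps out of the nucleus. When DAF-2 signalling is low, DAF-16 enters the nucleus. Genes whose transcripts then rise are called class I targets, and those that fall are called class II targets. In the naming of the family, dod-3 and dod-6 are class I genes and dod-17 to dod-24 are class II genes. The class II members dod-17, dod-21, dod-22 and dod-24 encode proteins with a CUB-like domain, a family that also holds genes induced in the intestine by bacterial pathogens. The members were picked by symbol alone, as dod-3, dod-6, dod-17, dod-19, dod-20, dod-21, dod-22, dod-23 and dod-24, which are 9 of the 46926 genes counted.

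Transcripts were counted in libraries of whole adult worms, about 50 worms each, raised at 20 °C and aged on plates with 51 µM FUdR, which stops progeny from growing. From day 1 of adulthood the plates held sulforaphane (SFN), an isothiocyanate of broccoli, or its solvent DMSO at 0.25%. N2 is the wild-type strain, PX991 carries daf-16(fx107), and EU1 carries skn-1(zu67), a mutation in the gene of the Nrf-type factor SKN-1. The labels do not say what either allele changes in its protein.

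Of N2, a treatment table held SFN and DMSO worms at days 2, 4, 8, 12 and 16 with 4 libraries per group. Another 40 N2 libraries came from DMSO worms alone, 4 at each of these ages in each of a pair of repeats called trials 2 and 3. Of PX991, SFN and DMSO worms were taken at days 4 and 12 with 4 libraries per group. EU1 gave 5 libraries on SFN at day 4 and 6 in each of its other groups of those ages, and its replicates 4 to 6 were collected at separate times. Replicates were biological ones, per the labels' protocols, and every group shared FUdR, DMSO and the bacterial food.

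In units of 1e6 counts (M), the libraries of the N2 treatment table held 0.445 to 12.5 M, those of trials 2 and 3 held 1.07 to 8.61 M, the PX991 libraries 0.585 to 5.46 M and the EU1 libraries 2.06 to 10.3 M. A pair of shallow N2 DMSO libraries stood apart by few genes at a common depth, namely replicate 1 of day 2 with 7115 genes and replicate 4 of day 4 with 6660. The shallowest PX991 library, replicate 3 of SFN at day 12, had the most genes at that depth, 15272. Levels below are CPM, counts scaled to a library of 1e6, after TMM scaling. Fold changes are on the log2 scale ± SE from edgeR's quasi-likelihood test, and an adjusted p is the Benjamini-Hochberg value over all genes of the comparison. A gene is said to rise, fall or be called where this p was under 0.05.

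The CUB-like genes lie within a short stretch of chromosome IV in WBcel235. There, dod-21 (WBGene00007873) runs from 12936738 to 12937988 on the + strand, and dod-24 (WBGene00007875) runs from 12940106 to 12941354 on the - strand, 2118 bases away. Further along on the + strand, dod-22 (WBGene00010125) runs from 12965374 to 12967392 and dod-17 (WBGene00010745) from 12976303 to 12978343. On chromosome V, dod-19 (WBGene00022644, 411782 to 414759, - strand) and dod-20 (WBGene00015259, 422433 to 424177, + strand) are 7674 bases apart. On the same chromosome, dod-3 (WBGene00016052) spans 2730622 to 2731098 on the - strand. Chromosome III holds dod-6 (WBGene00011869, 10197716 to 10198352, + strand), and chromosome II holds dod-23 (WBGene00009898, 8398161 to 8399164, - strand). All 9 are protein-coding, with 2 exons in dod-3 and dod-6 and 8 in dod-17 and dod-22, and no annotated gene overlaps any of them. Because CUB-like paralogs resemble each other, counts of single members of that family are uncertain where reads could be shared.

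Per length of exon, dod-6 and dod-19 were the most abundant members in N2 at day 8 on DMSO in the treatment table. Their means were 469 CPM per kb for dod-6 and 461 for dod-19, and their ranges over the 4 libraries overlapped, 422 to 522 against 353 to 510. Next came dod-23 at 269 CPM per kb and dod-3 at 214, whose ranges of 197 to 331 and 154 to 259 also overlapped. The CUB-like genes were lower, with 28.9 CPM per kb for dod-24, 1.11 for dod-22 and 0.374 for dod-17, and the ranges of these 3 genes did not overlap. At the foot of the order, dod-20 held 0.173 CPM per kb, and dod-21 had no count in that group.

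Both dod-20 and dod-21 stayed below the expression filter in every fit that had one, so at most 7 members were tested. With no filter, dod-20 was lower than at day 2 in trials 2 and 3, by -2.55 at day 12 (edgeR adjusted p = 0.00162) and -1.95 at day 16 (edgeR adjusted p = 0.0233). Likewise dod-21 was lower at day 12 than day 4 on DMSO in the N2 treatment table, at -3.76 on 5 counts at day 4 (edgeR adjusted p = 0.0295). The group mean of dod-20 did not exceed 1.57 CPM in any group. Of dod-21, 22 of the 23 counts in trial 2 at day 4 came from replicate 3, at 4.1 CPM. In N2 at days 12 and 16, no library of either treatment or any trial held a count of dod-21.

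The first comparison asks how the members change with age in wild type, read from the 40 N2 DMSO libraries of trials 2 and 3 against day 2, with trial as a term. The class I genes dod-3 and dod-6 rose to a peak at day 8 and came down again, while dod-17, dod-22 and dod-24 were nearly lost by day 16. At day 4, 2 of 7 tested members were called, where 18.4% of all genes tested were. The numbers were 6 of 7 at day 8 against 41.6% of all genes, 5 of 7 at day 12 against 59.2%, and 4 of 7 at day 16 against 63.6%. At days 12 and 16, dod-17 held 3 counts at each age and dod-22 none, and dod-24 held 3 at day 16. They passed the filter through earlier ages, so at these counts they could only be called lower.

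In class I, dod-3 spanned 0.223 to 14.6 CPM over the 8 libraries of day 2 with a median of 8.06, and 44.3 to 101 CPM at day 8 with a median of 79. Every day 8 library lay above every day 2 library. The rise was 3.54 ± 0.41 on the log2 scale at day 8 (edgeR adjusted p = 8.1e-09). It was 1.89 ± 0.41 at day 4 (edgeR adjusted p = 0.00101) and 2.04 ± 0.41 at day 12 (edgeR adjusted p = 6.1e-05), with overlapping ranges at both ages. At day 16 the value of 0.94 ± 0.44 did not pass (edgeR adjusted p = 0.0612). It passed when any 1 of 5 libraries was left out, trial 3 replicates 3 and 4 of day 16 and 1, 3 and 4 of day 2, at 1.05 to 1.11 (edgeR adjusted p from 0.0306 to 0.0431).

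The other class I gene, dod-6, had a day 2 range of 27.6 to 72 CPM with a median of 34.7 and a day 8 range of 138 to 303 CPM with a median of 172. These ranges did not overlap, and the rise was 2.23 ± 0.28 (edgeR adjusted p = 4.9e-08). By day 12 the median had come down to 62.7 CPM, still 0.99 ± 0.28 above day 2 (edgeR adjusted p = 0.00257), and at day 16 it was 37.5 CPM.

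Of the CUB-like gene dod-17, the 8 libraries of day 2 held 5.07 to 19.2 CPM with a median of 11.6, those of day 8 held 0 to 2.39 CPM, and days 12 and 16 held 3 counts each over 8 libraries. No later library reached the day 2 range from day 8 on, and the change at day 8 was -4.36 ± 0.45 on the log2 scale (edgeR adjusted p = 7.2e-11). Without trial 2 replicate 1 of day 8, the highest library, it was -5.78. At day 4 dod-17 had a median of 6.64 CPM, and its value of -0.81 ± 0.32 did not pass (edgeR adjusted p = 0.0682). It passed without trial 3 replicate 1 of day 2, at -0.91 (edgeR adjusted p = 0.0466), and without trial 2 replicate 3 of day 4, at -0.97 (edgeR adjusted p = 0.0433).

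Another CUB-like gene, dod-22, ranged from 0.588 to 13.3 CPM at day 2, from 0.373 to 3.24 at day 4 and from 0 to 2.97 at day 8, with medians of 4.92, 1.81 and 0.342 CPM. The ranges overlapped, and dod-22 fell by 1.35 ± 0.46 at day 4 (edgeR adjusted p = 0.039) and by 2.72 ± 0.57 at day 8 (edgeR adjusted p = 2.6e-04). Without trial 2 replicate 2 of day 8 the latter was -3.70. No library of days 12 and 16 held a count of dod-22. Against a floor of 3 counts over those 8 libraries, the level was at least 66.2-fold lower at day 12 and at least 43.9-fold lower at day 16 than at day 2. The call at day 4 was lost in 12 of 16 fits that left out 1 library, with values from -1.41 to -1.14 (edgeR adjusted p from 0.055 to 0.113). The libraries behind these losses were replicates 1 and 4 of trial 2 and 2, 3 and 4 of trial 3 at day 2, replicates 1, 3 and 4 of trial 2 at day 4, and all 4 of trial 3 at day 4.

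The most abundant CUB-like gene, dod-24, first rose and then fell. Its medians were 45.4 CPM at day 2, 72.3 at day 4, 92.2 at day 8 and 3.17 at day 12. At day 8 the range of 43.1 to 133 CPM overlapped the 33.9 to 69.7 of day 2, and the rise was 0.86 ± 0.24 (edgeR adjusted p = 0.00396). At day 12 no library reached the day 2 range, and the change was -3.34 ± 0.29 (edgeR adjusted p = 5.5e-12), or -4.0 without trial 2 replicate 3 of day 12. Day 16 held 3 counts of dod-24 over 8 libraries.

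Of the other class II genes, dod-23 went up and down within a smaller span. Its median was 91.3 CPM at day 2 and 150 at day 8, a rise of 0.82 ± 0.24 (edgeR adjusted p = 0.00538), and 46.7 at day 16, a change of -0.83 ± 0.25 (edgeR adjusted p = 0.00498). The ranges overlapped at both ages. For dod-19 no age passed, with values between -0.41 and 0.41 on the log2 scale. The plot of N2 levels by age shows these courses.

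**Figure D1:**
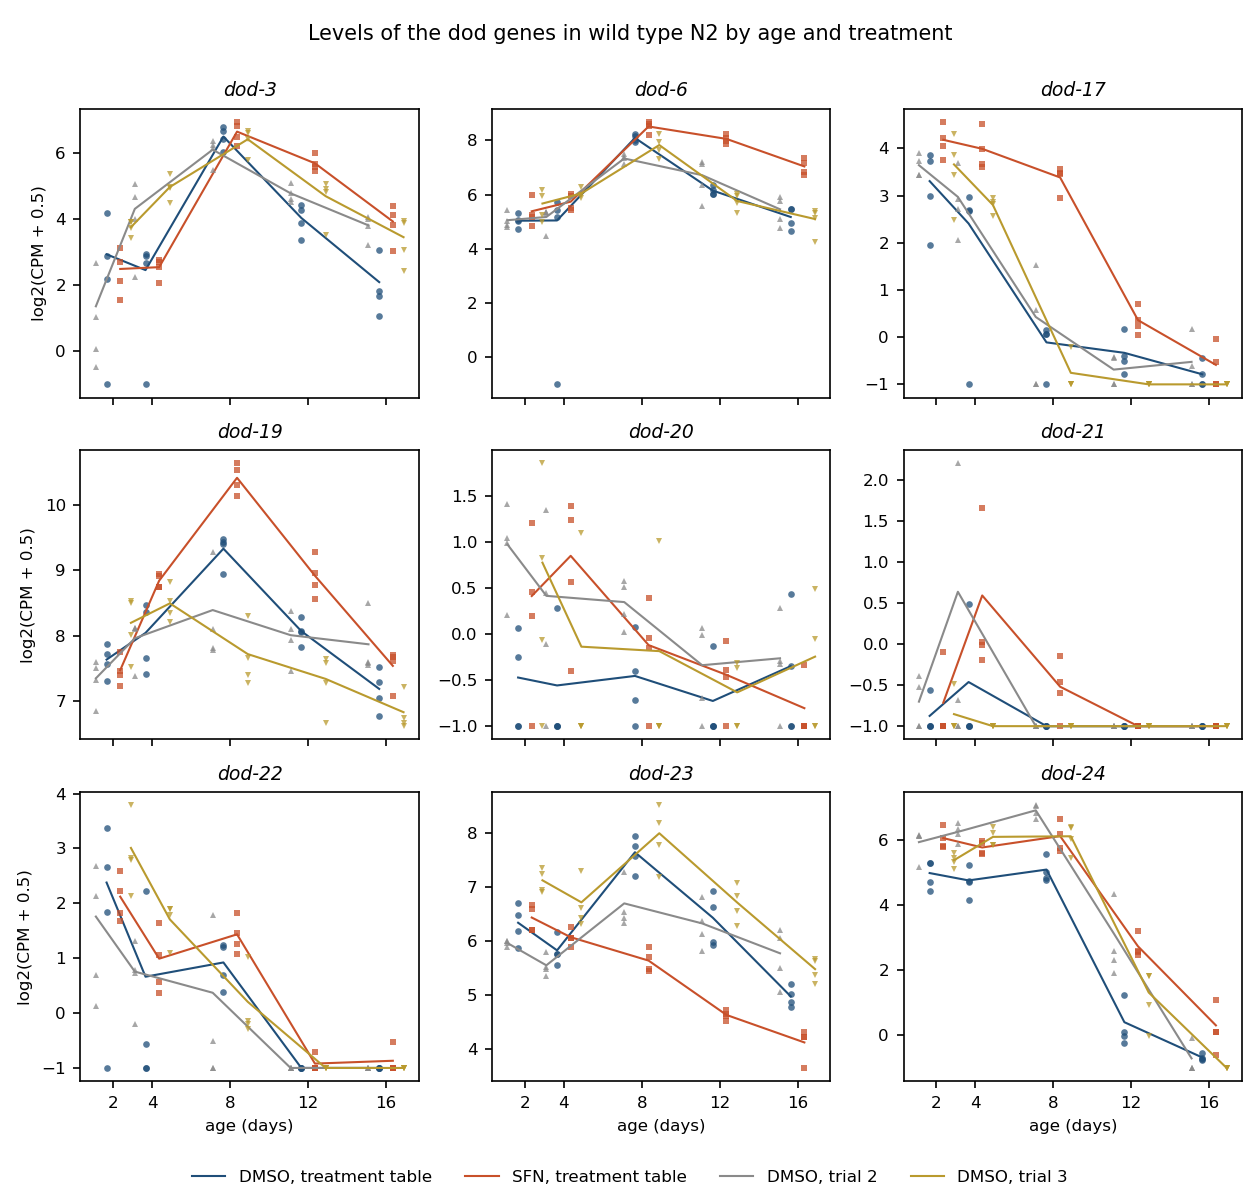
Levels of the 9 dod genes in N2 on a log2(CPM + 0.5) scale (y axis) against age in days (x axis, points shifted sideways by set). Each point is 1 library and each line joins the means of the groups' CPM put on that scale, for DMSO and SFN of the treatment table and for DMSO of trials 2 and 3. The class I genes dod-3 and dod-6 peak at day 8, dod-17, dod-22 and dod-24 come down to near 0 counts, and dod-23 is lower on SFN than on DMSO from day 8 on.

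Markers of intestine, muscle and oocytes moved along with these ages. The summed level of the 10 intestinal markers spanned 1680 to 2250 CPM at day 2 and 434 to 854 at day 16 in trial 2, and 2510 to 3880 and 175 to 266 CPM in trial 3, and 9 of the 10 were called lower at day 16. The 10 muscle markers summed to 2530 to 4130 CPM at day 2, 822 to 1140 at day 8 and 871 to 1470 at day 16 in trial 2, and to 1980 to 3040, 474 to 1260 and 525 to 812 CPM in trial 3, with 9 of 10 called lower at days 4, 8 and 12. Of the oocyte and eggshell markers 7 of 10 were higher at day 4 and 7 of 10 lower at day 16, at 13300 to 18800 CPM in sum at day 16 in trial 2 and 7780 to 8790 in trial 3, against 14600 to 15200 and 9690 to 10700 CPM at day 2. In RNA from whole worms, fewer cells of a type and less RNA per cell cannot be told apart. The part of these markers in the ageing of the dod genes was not tested.

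The next comparison asks what SFN did in wild type, at each of 5 ages. With SFN, dod-24 was higher at days 2 to 12, dod-19 at days 4 to 12 and dod-17 at days 4 and 8. The class I pair dod-3 and dod-6 was higher at days 12 and 16, and dod-23 was lower at days 8, 12 and 16. At day 2, 1 of 7 tested members was called, against 4.33% of all genes tested. At day 4 it was 3 of 7 against 10.3%, at day 8 it was 4 of 7 against 3.53%, at day 12 it was 5 of 7 against 18.8%, and at day 16 it was 3 of 7 against 19.3%.

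In class I, dod-6 at day 12 read 64.7, 64.4, 71.4 and 81.6 CPM in the DMSO libraries and 304, 272, 233 and 255 CPM in the SFN libraries. Every SFN library lay above every DMSO library, by 3.82-fold or 1.94 ± 0.22 on the log2 scale (edgeR adjusted p = 1.2e-08). At day 16 the DMSO libraries held 30.5, 24.6, 43.5 and 44 CPM of dod-6 and the SFN libraries 161, 144, 105 and 115 CPM. Again the groups did not overlap, and the rise was 1.89 ± 0.23 (edgeR adjusted p = 9.6e-08). At day 8, the age of its peak, dod-6 measured 273 ± 26.5 CPM on DMSO and 366 ± 50.3 CPM on SFN (SD, n = 4 libraries each), and 0.42 ± 0.21 did not pass (edgeR adjusted p = 0.528).

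With it went dod-3, which held 14.1, 20.9, 9.86 and 18.7 CPM on DMSO at day 12 and 62.9, 43.4, 50.3 and 47.6 CPM on SFN. The groups did not overlap, and the rise was 1.71 ± 0.34 (edgeR adjusted p = 1.7e-04). At day 16 the DMSO libraries read 2.66, 1.59, 7.79 and 3.03 CPM of dod-3 and the SFN libraries 13.5, 17.1, 7.71 and 20.6 CPM. There the highest DMSO library just exceeded the lowest SFN library, and the rise was 1.92 ± 0.40 (edgeR adjusted p = 4.5e-04), or 2.57 without that DMSO library, replicate 3. At days 2, 4 and 8 dod-3 did not pass, with -0.79 ± 0.51, -0.24 ± 0.53 and 0.14 ± 0.32 on the log2 scale.

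Among the CUB-like genes, dod-17 differed most at day 8. On DMSO it held 0.545, 0, 0.607 and 0.553 CPM, 9 counts in all, and on SFN 10.5, 11.4, 10.6 and 7.25 CPM, 227 counts in all. The groups were far apart, 21.4-fold or 4.42 ± 0.59 on the log2 scale (edgeR adjusted p = 4.8e-07). At day 4 the DMSO libraries read 7.36, 5.91, 5.96 and 0 CPM of dod-17 and the SFN libraries 22.3, 15.4, 11.7 and 12.2 CPM, without overlap. That rise of 1.43 ± 0.45 (edgeR adjusted p = 0.0326) was lost without SFN replicate 1, at 1.20 (edgeR adjusted p = 0.129), without SFN replicate 2, at 1.44 (edgeR adjusted p = 0.0687), and without DMSO replicate 2, at 1.43 (edgeR adjusted p = 0.0595). At day 12 the value of 1.45 ± 0.64 did not pass (edgeR adjusted p = 0.113), but passed without DMSO replicate 2, at 2.04 (edgeR adjusted p = 0.0446).

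For dod-24 the clearest difference came at day 12, when DMSO libraries held 0.349, 1.88, 0.585 and 0.478 CPM and SFN libraries 8.68, 5.56, 5.33 and 4.98 CPM. No libraries overlapped, and the rise was 7.82-fold or 2.97 ± 0.39 (edgeR adjusted p = 3.7e-08). Without DMSO replicate 2, the highest of its group, it was 3.70. At day 2 dod-24 read 38.9, 38.5, 25.6 and 21.2 CPM on DMSO and 87.8, 55.2, 54.7 and 65.7 CPM on SFN, again apart, with a rise of 1.11 ± 0.28 (edgeR adjusted p = 0.0173). The rises at days 4 and 8 were 1.01 ± 0.28 (edgeR adjusted p = 0.0165) and 1.04 ± 0.26 (edgeR adjusted p = 0.0119). At day 16 the value was 2.27 ± 0.86 (edgeR adjusted p = 0.0565) on 5 DMSO and 13 SFN counts.

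Each of the 3 earlier calls of dod-24 was lost when any 1 of several libraries was left out. The call at day 2 was lost without SFN replicate 1, at 0.95 (edgeR adjusted p = 0.058), or DMSO replicate 4, at 0.94 (edgeR adjusted p = 0.0556). At day 4 it was lost without SFN replicate 1, at 0.95 (edgeR adjusted p = 0.0555), or DMSO replicate 1, at 0.81 (edgeR adjusted p = 0.0679). At day 8 it was lost without SFN replicate 1, at 0.78 (edgeR adjusted p = 0.2), and without DMSO replicates 1, 3 or 4, at 1.01, 0.93 and 0.98 (edgeR adjusted p of 0.052, 0.0935 and 0.0504). Day 16 gained a call of dod-24 without SFN replicate 3, at 2.70 (edgeR adjusted p = 0.0269), and with replicate number as a block, at 2.26 (edgeR adjusted p = 0.0478).

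The last CUB-like gene tested, dod-22, passed at no age with SFN. At day 4 its DMSO libraries read 0.18, 0, 4.15 and 0 CPM and its SFN libraries 2.6, 0.781, 0.978 and 1.59 CPM. Replicate 3 stood alone among the DMSO libraries, and without it the value moved from 0.03 ± 0.85 to 3.55 and was called (edgeR adjusted p = 0.0315). The DMSO libraries left then held 0.18 CPM or none, so the size of 3.55 has no meaning as a fold. At day 12 the DMSO libraries of dod-22 held no count and the SFN libraries 1.

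Of the other class II genes, dod-23 was the member with the lower level on SFN. At day 8 it held 146, 245, 216 and 190 CPM on DMSO and 51.6, 58.4, 42.7 and 43.9 CPM on SFN. The groups were well apart, 4.03-fold lower on SFN, or -2.01 ± 0.18 on the log2 scale (edgeR adjusted p = 2.7e-11). At day 12 the DMSO libraries read 59.9, 121, 98.9 and 62.6 CPM of dod-23 and the SFN libraries 24, 25.9, 22.4 and 24.5 CPM, a change of -1.80 ± 0.19 (edgeR adjusted p = 1.7e-10). At day 16 they read 31.8, 26.9, 28.6 and 36.1 CPM on DMSO and 19.4, 18, 12 and 18 CPM on SFN, still without overlap, a change of -0.88 ± 0.20 (edgeR adjusted p = 0.00111). None of these calls of dod-23 was lost when any 1 library of its groups was left out.

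The abundant dod-19 was higher with SFN in the middle ages. At day 8 it read 678, 712, 493 and 691 CPM on DMSO and 1590, 1260, 1130 and 1480 CPM on SFN, without overlap, a rise of 1.08 ± 0.19 (edgeR adjusted p = 2.0e-04). At day 12 the DMSO libraries held 313, 265, 267 and 227 CPM of dod-19 and the SFN libraries 618, 499, 436 and 378 CPM, a rise of 0.87 ± 0.19 (edgeR adjusted p = 6.5e-04). At day 4 the values were 170, 328, 352 and 202 CPM against 494, 428, 430 and 480 CPM, a rise of 0.78 ± 0.19 (edgeR adjusted p = 0.00914). That call was lost in a fit of only the groups compared, at 0.73 (edgeR adjusted p = 0.134). At day 16 dod-19 did not pass, with 0.36 ± 0.19 (edgeR adjusted p = 0.195).

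The DMSO libraries of trials 2 and 3 give a further background for the SFN libraries, on levels scaled over all tables. The values called with SFN lay above all 8 trial libraries of the same age, below them or overlapping them, as listed next. How often other called genes lay apart from the trials was not counted, and SFN and trial libraries stand in separate tables. Above were dod-6 at day 12 (233 to 304 against 39.6 to 149 CPM) and day 16 (105 to 161 against 18.8 to 59.2 CPM), dod-3 at day 12 (43.4 to 62.9 against 11 to 33.8 CPM), dod-17 at day 8 (7.25 to 11.4 against 0 to 2.39 CPM), and dod-19 at day 8 (1130 to 1590 against 155 to 623 CPM) and day 12 (378 to 618 against 101 to 331 CPM). Below was dod-23, at 42.7 to 58.4 against 79.9 to 365 CPM at day 8, 22.4 to 25.9 against 55.5 to 134 CPM at day 12 and 12 to 19.4 against 32.6 to 73.1 CPM at day 16. Overlapping were dod-24 at all 4 of its called ages, dod-17 at day 4 (11.7 to 22.3 against 3.64 to 12.5 CPM), dod-19 at day 4 (428 to 494 against 166 to 451 CPM) and dod-3 at day 16 (7.71 to 20.6 against 4.92 to 16.22 CPM). For dod-24 the trial libraries held 56.5 to 91.6 CPM at day 4 and 0.479 to 19.8 CPM at day 12, where the SFN libraries held 47.1 to 61.4 and 4.98 to 8.68 CPM. These libraries were not part of the test of SFN.

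Cell type markers differed between the same groups. At day 12 the 10 intestinal markers summed to 801 to 1190 CPM on DMSO with a median of 951 and to 1390 to 1780 CPM on SFN with a median of 1610, and ges-1 and cpr-6 were called. The 10 muscle markers summed to 514 to 574 CPM on DMSO and 1090 to 1570 CPM on SFN, and all 10 were called higher. The sums of the neuron and hypodermis markers at day 12 were 384 to 418 against 413 to 506 CPM and 167 to 193 against 272 to 346 CPM, those of oocytes 15000 to 19200 against 14800 to 17200 CPM and those of sperm 54.1 to 106 against 29.9 to 74.1 CPM. Called among these were rab-3 of neurons and col-19 and elt-3 of the hypodermis, all higher. At day 8 the intestinal sums were 1880 to 2150 CPM on DMSO and 2630 to 3640 CPM on SFN. The muscle sums were 833 to 1740 against 2040 to 2440 CPM at day 4, with 6 of 10 called higher, and 1000 to 1320 against 1610 to 1780 CPM at day 8, with 4 of 10. At day 16, 8 of 10 oocyte and eggshell markers were called higher, at 13600 to 14400 CPM in sum on DMSO and 17000 to 19000 on SFN, with 4 of 10 muscle markers higher and, of the intestinal ones, 3 higher and 2 lower. Their part in the responses of the dod genes was not tested.

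In the daf-16 strain PX991 the same treatment was read at days 4 and 12. At day 4, 2 of 7 tested members were called against 0.506% of all genes tested, dod-17 higher and dod-3 lower on SFN. At day 12, 3 of 7 were called against 4.69%, with dod-3, dod-19 and dod-23 higher. For dod-6, which rose in N2 at day 12, the PX991 libraries of that age read 36.5, 12.5, 24.9 and 17 CPM on DMSO and 20.8, 19.5, 3.02 and 10.9 CPM on SFN. These groups overlapped, and -0.69 ± 0.36 did not pass (edgeR adjusted p = 0.303).

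At day 4 in PX991, dod-17 held 10.3, 9.57, 5.21 and 8.88 CPM on DMSO and 42.6, 26.7, 33.4 and 32.6 CPM on SFN. The groups did not overlap, and the rise was 1.99 ± 0.36 (edgeR adjusted p = 0.0046). At the same age dod-3 read 53.9, 74, 44.9 and 38.3 CPM on DMSO and 22.5, 19.4, 19.2 and 26.6 CPM on SFN, a change of -1.27 ± 0.25 without overlap (edgeR adjusted p = 0.0111). This call of dod-3 was lost without DMSO replicate 2, at -1.06 (edgeR adjusted p = 0.0952), SFN replicate 2, at -1.19 (edgeR adjusted p = 0.0678), or SFN replicate 3, at -1.22 (edgeR adjusted p = 0.067). Also apart, but not past the threshold, were dod-23 with -0.83 ± 0.23 (edgeR adjusted p = 0.168) and dod-24 with 0.50 ± 0.15 (edgeR adjusted p = 0.208). With replicate number as a block dod-23 passed, at -0.88 (edgeR adjusted p = 0.0187). It also passed with DESeq2, at -0.84 (DESeq2 adjusted p = 0.0378), with only the groups compared, at -0.85 (edgeR adjusted p = 0.0133), and with no filter, at -0.83 (edgeR adjusted p = 2.3e-05). For dod-24 a call appeared with DESeq2, at 0.49 (DESeq2 adjusted p = 0.00698), and with only the groups compared, at 0.48 (edgeR adjusted p = 0.00223).

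At day 12 in PX991, dod-3 read 10.8, 7.57, 8.31 and 11.6 CPM on DMSO and 39.2, 15.4, 16.6 and 21.4 CPM on SFN, a rise of 1.26 ± 0.31 (edgeR adjusted p = 0.02). The groups of dod-19 were 102, 93.5, 97.2 and 163 CPM against 259, 180, 177 and 178 CPM, a rise of 0.77 ± 0.18 (edgeR adjusted p = 0.0117). Those of dod-23 were 103.8, 93.1, 93.1 and 91.8 CPM against 313, 173, 118 and 124 CPM, a rise of 0.90 ± 0.24 (edgeR adjusted p = 0.0384). None of these groups overlapped, and SFN replicate 1 was the highest library for dod-3, dod-19 and dod-23 alike.

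Without that replicate all 3 calls of day 12 in PX991 were lost. The values were then 0.88 for dod-3 (edgeR adjusted p = 0.0931), 0.61 for dod-19 (edgeR adjusted p = 0.0518) and 0.50 for dod-23 (edgeR adjusted p = 0.113). The call of dod-3 was also lost without DMSO replicate 2, at 1.12 (edgeR adjusted p = 0.0694). The call of dod-23 was further lost without DMSO replicate 1, 2, 3 or 4, at 0.94, 0.87, 0.90 and 0.90, and without SFN replicate 2 or 3, at 0.93 and 1.02 (edgeR adjusted p from 0.0556 to 0.0822). The summed intestinal markers of the same libraries spanned 299 to 446 CPM on DMSO and 535 to 874 CPM on SFN. Their part in the rises was not tested.

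Whether the response of PX991 differs from that of N2 was tested as the difference of the SFN effects in 1 fit over both strains. N2 and PX991 stand in separate tables, so strain and table cannot be told apart in this difference. At day 12, 2 of 7 members were called against 5.40% of all genes tested. The difference of dod-22, which had no count on DMSO in either strain, could not be estimated. The response of dod-23 was higher in PX991 than in N2 by 2.77 ± 0.32 on the log2 scale (edgeR adjusted p = 2.8e-06), with SFN libraries below DMSO libraries in N2 and above them in PX991. That of dod-6 was lower in PX991, a difference of -2.54 ± 0.49 (edgeR adjusted p = 0.00163). Leaving out any 1 of the 16 libraries of day 12 kept both calls, with values of 2.38 to 2.94 for dod-23 and -2.80 to -2.14 for dod-6. The differences of dod-3, at -0.37 ± 0.42, and of dod-19, at -0.02 ± 0.27, did not pass (edgeR adjusted p of 0.673 and 0.975).

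At day 4, 0 of 7 members passed for this difference against 0.410% of all genes tested, and 4 had an unadjusted p under 0.05, namely dod-3, dod-6, dod-19 and dod-23. Both DESeq2 and edgeR with DESeq2's scaling also gave 0. The value of dod-23 was -1.07 ± 0.32 (edgeR adjusted p = 0.123), and it passed with the replicate block, at -1.15 (edgeR adjusted p = 0.0374). With only the groups compared it passed at -1.06 (edgeR adjusted p = 0.0439), and with no filter at -1.07 (edgeR adjusted p = 8.3e-04). It also passed without N2 DMSO replicate 3, at -1.25 (edgeR adjusted p = 0.0307). Without that library dod-22 passed too, at -4.04 (edgeR adjusted p = 0.0377). The N2 DMSO libraries left then held 0.18 CPM of dod-22 or less, so this size has no meaning as a fold.

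In the skn-1 strain EU1, no member passed at day 4, 0 of 6 tested against 0.251% of all genes tested, and 1 had an unadjusted p under 0.05, dod-17. DESeq2 gave 0 as well. At day 12, 3 of 6 members rose against 19.3% of all genes called, namely dod-3, dod-6 and dod-19, while dod-22 stayed below the filter. The values of dod-3 were 1.66 to 32 CPM on DMSO with a median of 14.4 and 36 to 106 CPM on SFN with a median of 57.7. The 6 libraries of each group did not overlap, and the rise was 2.21 ± 0.52 (edgeR adjusted p = 0.00817). For dod-19 the DMSO libraries ran from 39.5 to 180 CPM with a median of 140 and the SFN libraries from 210 to 474 CPM with a median of 330, a rise of 1.37 ± 0.37 without overlap (edgeR adjusted p = 0.0185).

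The groups of dod-6 overlapped in EU1 at day 12, with 5.58 to 64.1 CPM on DMSO (median 21.6) and 53.7 to 267 CPM on SFN (median 106), and the rise was 2.07 ± 0.64 (edgeR adjusted p = 0.0334). This call was lost when SFN replicate 1, 2 or 4 was left out, at 2.13, 1.72 and 1.87, or DMSO replicate 3, 4, 5 or 6, at 1.95, 2.22, 1.87 and 1.78 (edgeR adjusted p from 0.0502 to 0.0895). For dod-23 the value was 0.62 ± 0.34 (edgeR adjusted p = 0.208), on medians of 31.4 CPM on DMSO and 65 CPM on SFN. Whether EU1 responded otherwise than N2 was not tested. The intestinal markers in EU1 at day 12 summed to 138 to 287 CPM on DMSO and 373 to 666 CPM on SFN, with 6 of 10 called higher, and their part in the rises was not tested. The plot of SFN effects sets the 3 strains side by side.

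**Figure D2:**
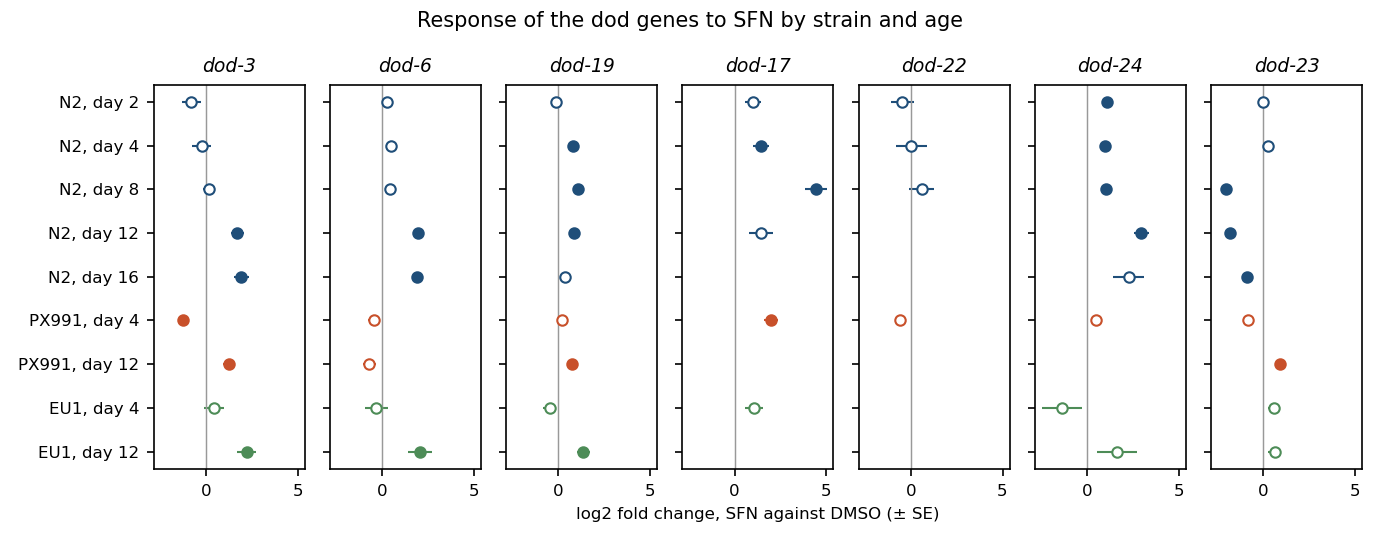
Log2 fold change of SFN against DMSO (x axis, ± SE from edgeR) for the 7 dod genes that passed a filter, by strain and age (y axis). Filled points passed an adjusted p of 0.05, open points did not, and comparisons in which either group held 3 counts or fewer have no point. At day 12 dod-23 lies at -1.80 in N2 and 0.90 in PX991, and dod-6 at 1.94 in N2 and -0.69 in PX991.

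The strains were then compared in how they aged on DMSO from day 4 to day 12. In N2 of the treatment table, 6 of 7 members were called against 44.9% of all genes tested, with dod-3, dod-6 and dod-23 higher and dod-17, dod-22 and dod-24 lower. In PX991, 5 of 7 were called against 36.1%, all 5 lower, namely dod-3, dod-17, dod-22, dod-23 and dod-24. Of these, dod-17, dod-22 and dod-24 held 2, 0 and 1 counts at day 12. They passed the filter through the day 4 groups, so a fall was the only call open to them. In N2 too, dod-22 had no count at day 12 and could only be called lower. The difference between the strains was called for 4 of 7 against 16.21% of all genes tested, and was lower in PX991 for dod-3, dod-6, dod-23 and dod-24. Its N2 side was the treatment table alone, so strain and table cannot be told apart. With no count at day 12 in either strain, the difference of dod-22 could not be estimated. Trials 2 and 3 were not in that fit. Their N2 means at days 4 and 12 were 19.3 and 27, and 30.9 and 25.4 CPM for dod-3. For dod-6 they were 35.7 and 105, and 65.6 and 53.9 CPM, and for dod-23 46.2 and 79.6, and 104.5 and 104.2 CPM. For dod-24 they were 75.3 and 8.28, and 67.6 and 1.99 CPM.

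In N2, dod-3 read 6.83, 5.91, 7.22 and 0 CPM at day 4 and 14.1, 20.9, 9.86 and 18.7 CPM at day 12, a rise of 1.33 ± 0.42 without overlap (edgeR adjusted p = 0.00894). In PX991 it went from 53.9, 74, 44.9 and 38.3 CPM to 10.8, 7.57, 8.31 and 11.6 CPM, a change of -2.42 ± 0.29 without overlap (edgeR adjusted p = 6.8e-07). The 2 courses of dod-3 differed by -3.78 ± 0.44 (edgeR adjusted p = 2.3e-07). The library with no count of dod-3 at day 4, replicate 4, is the shallow one named above, and it held no count of dod-6, dod-17 or dod-22 either. The calls of dod-3 in N2 and of the difference were kept without the pair of shallow libraries, but the N2 call was lost in a fit of only the groups compared, at 1.48 (edgeR adjusted p = 0.0638).

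The class II gene dod-23 had a like pair of courses. In N2 it read 46.5, 53.5, 71.1 and 53.4 CPM at day 4 and 59.9, 121, 98.9 and 62.6 CPM at day 12, overlapping, with a rise of 0.58 ± 0.19 (edgeR adjusted p = 0.00919). In PX991 it went from 425, 435, 482 and 407 CPM to 103.8, 93.1, 93.1 and 91.8 CPM, a change of -2.15 ± 0.24 (edgeR adjusted p = 1.1e-06). At day 12 the PX991 libraries of dod-23 lay inside the range of the N2 libraries. The difference of the courses was -2.75 ± 0.32 (edgeR adjusted p = 5.1e-07). The rise of dod-23 in N2 was lost without day 4 replicate 1, at 0.48 (edgeR adjusted p = 0.0536), and without day 12 replicate 2, at 0.37 (edgeR adjusted p = 0.0996).

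For dod-6, N2 rose by 0.85 ± 0.24 (edgeR adjusted p = 0.00436), while PX991 went from 36.6 ± 8.93 to 22.7 ± 10.5 CPM (SD, n = 4), where -0.63 ± 0.31 did not pass (edgeR adjusted p = 0.121). Without PX991 day 12 replicate 1, the highest of its group, the fall passed at -1.03 (edgeR adjusted p = 0.0207). The difference of the courses of dod-6 was -1.54 ± 0.45 (edgeR adjusted p = 0.0189), and it was lost without PX991 day 12 replicate 2, at -1.29 (edgeR adjusted p = 0.0546). For dod-19 the PX991 value of -0.42 ± 0.17 did not pass (edgeR adjusted p = 0.0642). It passed without day 12 replicate 4, at -0.65 (edgeR adjusted p = 0.00401), and with the replicate block, at -0.44 (edgeR adjusted p = 0.0383).

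The CUB-like genes dod-17, dod-22 and dod-24 came down in both strains. In N2, dod-24 went from 17.2, 25.9, 37 and 25.8 CPM to 0.349, 1.88, 0.585 and 0.478 CPM, a change of -5.03 ± 0.37 without overlap (edgeR adjusted p = 1.3e-15), or -5.75 without day 12 replicate 2. In PX991 it went from 102, 103.8, 94.5 and 90.4 CPM to a single count, in replicate 3. The difference called for dod-24, -4.21 on the log2 scale (edgeR adjusted p = 0.00455), rests on the single count and on the fit's prior count, so its size has no meaning as a fold. Without that replicate it was -6.73, and without N2 day 12 replicate 2 it was -3.49. In PX991, dod-17 went from 98 counts at day 4 to 2 at day 12.

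For dod-22, PX991 held 23.1, 40.1, 40 and 27.8 CPM at day 4 and no count at day 12, which makes the later level at least 83.5-fold lower if the 4 libraries together are given 3 counts. In N2, dod-22 averaged 1.08 ± 2.05 CPM at day 4 (SD, n = 4) and had no count at day 12, at least 17.7-fold lower. That N2 call was lost without day 4 replicate 3, which held 4.15 CPM (-2.54, edgeR adjusted p = 0.116). Intestinal markers fell in PX991 over the same ages, from 1650 to 1980 CPM to 299 to 446 CPM in sum, with 8 of 10 called lower, and 5 of the 10 were called lower for the difference between the strains. Oocyte and eggshell markers fell as well, 7 of 10 in PX991, from 11500 to 11800 CPM to 6490 to 7580 CPM in sum, and 6 of 10 were lower for the difference. In N2, 7 of 10 muscle markers fell, from 833 to 1740 CPM to 514 to 574 CPM in sum. All 8 tested sperm markers rose in N2, from 0 to 0.328 CPM to 54.1 to 106 CPM in sum. The part of these markers in the ageing of the dod genes was not tested.

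Levels on DMSO were last compared between strains at the same age. The daf-16 transcript was counted in every PX991 library, at 153, 172, 147 and 172 CPM on DMSO at day 4 and 121, 126, 146 and 121 CPM at day 12. It differed from the mean of the 3 N2 sets by -0.24 ± 0.09 at day 4 (edgeR adjusted p = 0.0627) and by -0.95 ± 0.10 at day 12, where it was lower in PX991 (edgeR adjusted p = 3.9e-10). What fx107 does is not in the labels, so these counts neither check nor contradict the genotype. Because N2 and the mutants stand in separate tables, strain and table cannot be told apart in these levels.

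At day 4, 3 of 7 tested members were called in PX991 against N2, where 16.14% of all genes tested were, and dod-3, dod-22 and dod-23 were all higher in PX991. The levels of dod-23 in PX991, 407 to 482 CPM, lay above all 12 N2 libraries, which ran from 40.4 to 157 CPM with a median of 54.2. The difference was 6.89-fold or 2.78 ± 0.22 on the log2 scale (edgeR adjusted p = 2.2e-10). Likewise dod-22 at 23.1 to 40.1 CPM lay above the N2 libraries at 0 to 4.15 CPM (median 1.44), by 19.4-fold or 4.28 ± 0.46 (edgeR adjusted p = 1.2e-07). Without N2 treatment replicate 3, which held 4.15 CPM of dod-22, the difference was 5.41. The other N2 treatment libraries held 0.18 CPM or less, so 5.41 rests in part on near-zero counts. For dod-3 the PX991 range of 38.3 to 74 CPM overlapped the N2 range of 0 to 40.5 CPM (median 18.8), and the difference was 1.79 ± 0.39 (edgeR adjusted p = 0.00128).

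The 3 N2 sets were unlike each other in some members at day 4. The means of dod-23 were 56.1 ± 10.5 CPM in the treatment table, 46.2 ± 6.13 in trial 2 and 104.5 ± 36 in trial 3 (SD, n = 4 each). Those of dod-3 were 4.99 ± 3.37, 19.3 ± 12.2 and 30.9 ± 7.6 CPM. The set with the highest mean, trial 3, was still below PX991 in both genes. Of the cell type lists at that age, 7 of 10 oocyte and eggshell markers were lower in PX991, at 11500 to 11800 CPM in sum against 12500 to 19200 CPM in the 12 N2 libraries, and of the intestinal markers 2 were higher and 2 lower. Their part in the differences of the dod genes was not tested. For dod-19 the value of -0.85 ± 0.31 did not pass (edgeR adjusted p = 0.0549), and the call appeared without N2 treatment replicate 1 or 4, trial 2 replicate 4, or trial 3 replicate 2 or 4, at -0.93 to -0.89 (edgeR adjusted p from 0.0329 to 0.049). It also appeared with DESeq2, at -0.82 (DESeq2 adjusted p = 0.0239), with only the groups compared, at -0.87 (edgeR adjusted p = 9.6e-04), and with no filter. The value of dod-24, 0.96 ± 0.43, did not pass (edgeR adjusted p = 0.133), but passed with only the groups compared, at 0.94 (edgeR adjusted p = 1.6e-04), and with no filter.

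At day 12, 2 of 7 members were called in PX991 against N2, where 33.3% of all genes tested were, and both were lower. Of the 7, dod-22 held no count in any of these libraries and so could not be called. The level of dod-6 was 12.5 to 36.5 CPM in PX991 and 39.6 to 149 CPM in N2 (median 64.6), without overlap, a difference of -1.69 ± 0.52 (edgeR adjusted p = 0.0118). That of dod-19 was 93.5 to 163 CPM in PX991 and 101 to 331 CPM in N2 (median 236), a difference of -0.98 ± 0.32 (edgeR adjusted p = 0.0169). Without PX991 replicate 2 both calls were lost, at -1.41 for dod-6 (edgeR adjusted p = 0.0661) and -0.86 for dod-19 (edgeR adjusted p = 0.071), and without PX991 replicate 1 that of dod-19 was lost, at -0.93 (edgeR adjusted p = 0.0629). For dod-3 the value of -1.22 ± 0.51 (edgeR adjusted p = 0.0616) passed without trial 3 replicate 3, at -1.29 (edgeR adjusted p = 0.0458). It also passed with DESeq2, at -1.15 (DESeq2 adjusted p = 0.036), with only the groups compared, at -1.20 (edgeR adjusted p = 0.00115), and with no filter. On 1 PX991 count, dod-24 at -3.90 ± 1.91 did not pass (edgeR adjusted p = 0.115). In the same alternatives dod-24 passed, at -3.93 to -3.74 (edgeR adjusted p of 2.6e-05 and 0.0108, DESeq2 adjusted p = 0.00969). By contrast dod-23, with 0.10 ± 0.26, had no call (edgeR adjusted p = 0.812). All 10 oocyte and eggshell markers were lower in PX991 at that age, at 6490 to 7580 CPM in sum against 8890 to 19200 CPM in N2, as were 4 of 10 intestinal markers, at 299 to 446 CPM in sum against 247 to 1190 CPM. Their part in the differences was not tested.

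Against EU1, the other mutant of the same table, 5 of 7 members were called at day 4 where 13.4% of all genes tested were. This fit had no term for the separate collections of EU1, so strain and time of collection cannot be told apart here. Higher in PX991 were dod-22 at 23.1 to 40.1 against 0 to 1.53 CPM, by 6.08 ± 0.71 on 8 EU1 counts (edgeR adjusted p = 3.6e-07, and 6.82 without EU1 replicate 4), dod-24 by 3.08 ± 0.54 (edgeR adjusted p = 1.5e-04) and dod-17 by 1.77 ± 0.50 (edgeR adjusted p = 0.0131). Lower were dod-19, at -1.70 ± 0.34 (edgeR adjusted p = 7.6e-04), and dod-6, at -1.72 ± 0.51 (edgeR adjusted p = 0.0201). The call of dod-6 was lost without PX991 replicate 2, at -1.70 (edgeR adjusted p = 0.0532), or replicate 3, at -1.59 (edgeR adjusted p = 0.0716). The high dod-23 of day 4 was seen in EU1 too, at 228 to 607 CPM with a median of 342, and its difference from PX991 of 0.23 ± 0.26 did not pass (edgeR adjusted p = 0.632). At day 12, 1 of 7 members was called where 17.96% of all genes tested were, dod-23, at 91.8 to 103.8 CPM in PX991 and 23.9 to 59.8 CPM in EU1, a rise of 1.35 ± 0.29 (edgeR adjusted p = 0.00125). Neither strain held a count of dod-22 there, so that member could not be called. Of the oocyte and eggshell markers 4 of 10 were lower in PX991 than in EU1 at day 4 and 8 of 10 at day 12, where the sums were 6490 to 7580 against 8060 to 12900 CPM, and their part was not tested. The plot of strain levels shows the DMSO libraries of all 5 sets.

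**Figure D3:**
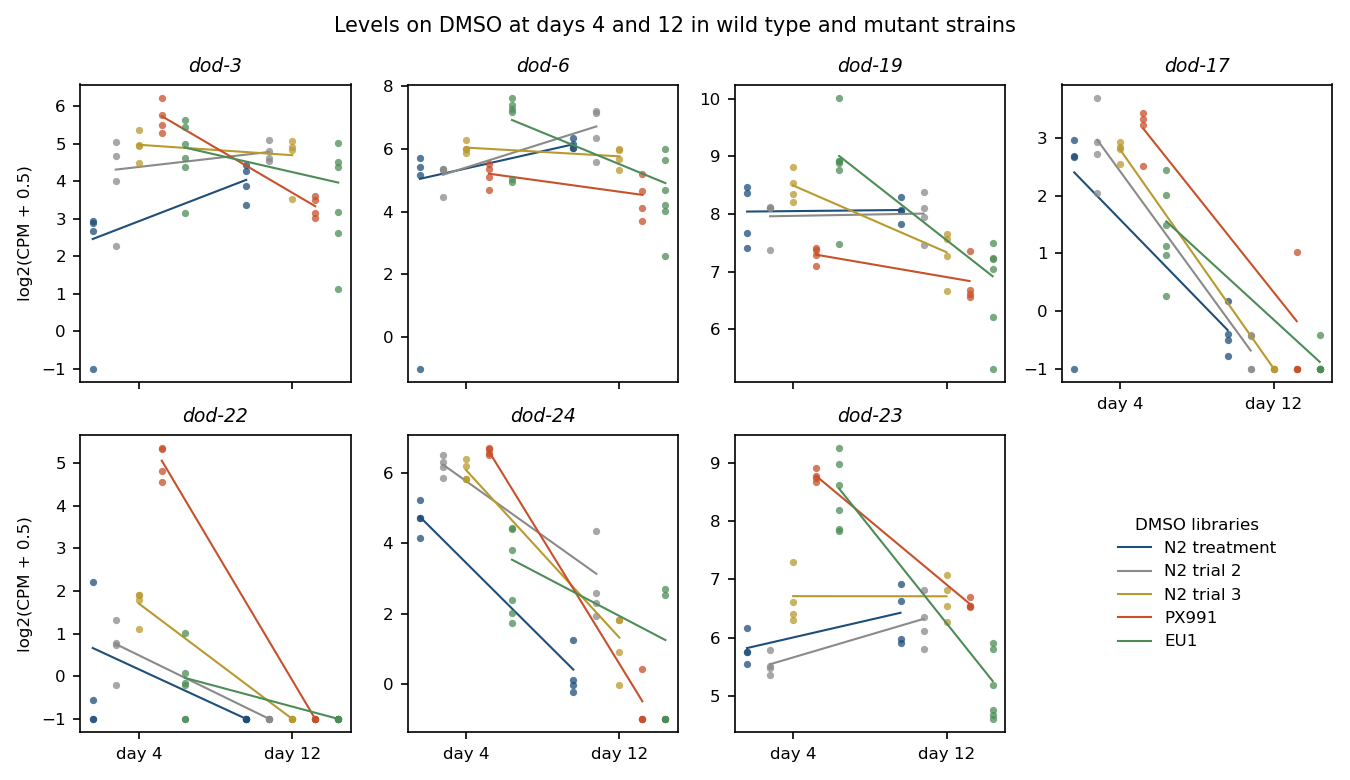
Levels on DMSO at days 4 and 12 (x axis) on a log2(CPM + 0.5) scale (y axis) for the 7 dod genes that passed a filter, in the 3 N2 sets, PX991 and EU1. Points are libraries and lines join the means of the groups' CPM put on that scale. At day 4 PX991 lies above every N2 library for dod-22 and dod-23, and at day 12 neither gene stands above N2.

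Other DAF-16 targets were read from lists written out by class. Of the 20 tested class I genes outside the dod family, 14 rose and none fell with SFN in N2 at day 12, with a median of 1.19 on the log2 scale where the median over all genes was 0.00 and 18.8% of all genes were called. By fold change the first were the desaturase gene fat-7 (3.27 ± 0.46, edgeR adjusted p = 2.7e-07) and the lysozyme genes lys-8 (3.00 ± 0.26, edgeR adjusted p = 5.7e-11) and lys-7 (2.56 ± 0.32, edgeR adjusted p = 1.6e-07). At day 16, 16 of 20 rose, against 19.3% of all genes called. In EU1 at day 12, 8 of 20 rose with a median of 0.79, against 19.3% of all genes, and in PX991 at day 12, 5 of 17 rose and 1 fell with a median of 0.36, against 4.69%.

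Of 5 tested class II genes outside the family, 3 rose with SFN in N2 at day 12, where 18.8% of all genes were called, the insulin-like peptide gene ins-7 (1.78 ± 0.34, edgeR adjusted p = 9.1e-05) and the yolk protein genes vit-5 (1.20 ± 0.18, edgeR adjusted p = 4.2e-06) and vit-2 (0.95 ± 0.20, edgeR adjusted p = 4.1e-04). None of the 5 fell, while dod-23 of the same class fell and dod-19 and dod-24 rose. In PX991 at day 12, 3 of the 5 rose as well, with a median of 1.40, against 4.69% of all genes called.

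For DMSO worms, PX991 against N2 at day 12 had 12 of 20 class I genes lower and none higher, with a median of -1.65, against 33.3% of all genes called, while at day 4 it had 6 lower and 3 higher, with a median of -0.07, against 16.14%. The largest differences at day 4 were those of the metallothionein gene mtl-1 (-3.84 ± 0.58, edgeR adjusted p = 1.4e-05), the small heat shock protein gene hsp-12.6 (2.06 ± 0.69, edgeR adjusted p = 0.0337) and the transhydrogenase gene nnt-1 (-1.53 ± 0.54, edgeR adjusted p = 0.0451). Of the 5 class II genes, the peptide transporter gene pept-1 alone was called at day 4 (2.26 ± 0.29, edgeR adjusted p = 2.8e-07), which is also in the intestinal list.

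Among 23 tested genes of the insulin pathway, 4 rose and 1 fell with SFN in N2 at day 12, a share near the 18.8% of all genes called. The named ones besides ins-7 were the kinase gene akt-2 (0.91 ± 0.31, edgeR adjusted p = 0.0293) and eak-7 (-0.50 ± 0.12, edgeR adjusted p = 0.00121). In PX991 against N2 at day 4, 2 were higher and 3 lower, where 16.14% of all genes were called, with the kinase gene sgk-1 at 1.23 ± 0.28 (edgeR adjusted p = 0.00148), the PI3-kinase gene age-1 at -0.51 ± 0.10 (edgeR adjusted p = 5.2e-04) and the receptor gene daf-2 at -0.41 ± 0.11 (edgeR adjusted p = 0.0102). The transcript of daf-16 itself rose with SFN in N2 at day 4 by 0.48 ± 0.11 (edgeR adjusted p = 0.00326) and passed at no other age.

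Of 20 tested pathogen response genes, 9 rose and none fell with SFN in N2 at day 12, where 18.8% of all genes were called. By fold change the first were irg-6, with no count on DMSO and 29 on SFN (edgeR adjusted p = 1.0e-04), K08D8.5, on 4 DMSO and 85 SFN counts (5.17 ± 0.51, edgeR adjusted p = 1.5e-10) and the C-type lectin gene clec-67 (4.60 ± 0.64, edgeR adjusted p = 8.7e-07). In PX991 against N2 at day 4, 3 of 19 were higher and 1 lower, a share near the 16.14% of all genes called, with clec-4 at 2.72 ± 0.61 (edgeR adjusted p = 0.00137), irg-4 at 2.15 ± 0.27 (edgeR adjusted p = 2.0e-07) and K08D8.5 at -1.71 ± 0.33 (edgeR adjusted p = 2.4e-04).

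Lying with their whole bodies within 10 kb of a member are 34 other protein-coding genes, 10 of which were tested in N2. Genes that reach past that distance were left out. With SFN at day 12, 6 of these 10 rose and none fell, where 18.8% of all genes were called. Of the genes beside dod-17 and dod-22, F55G11.4 rose by 3.10 ± 0.32 (edgeR adjusted p = 3.7e-09), F55G11.2 went from no count to 6 (edgeR adjusted p = 0.0212) and F55G11.8 from 4 counts to 14 (edgeR adjusted p = 0.0219). The others were Y39D8A.1 near dod-19 and dod-20 (1.96 ± 0.58), T20G5.8 near dod-6 (1.68 ± 0.37) and B0554.5 near dod-20 (1.60 ± 0.53). The infection response gene irg-8, which lies between dod-19 and dod-20, rose with SFN in N2 at day 8 by 1.79 ± 0.24 (edgeR adjusted p = 4.0e-06) and fell by 0.92 ± 0.28 at day 16 (edgeR adjusted p = 0.0183). At day 12 its response was higher in PX991 than in N2 by 1.93 ± 0.38 (edgeR adjusted p = 0.00178), and it was the only one of 9 tested neighbours called for that difference.

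Across the 10 groups of the N2 treatment table, the members fell into sets of like courses. Pearson's r of group mean log2 CPM was 0.954 between dod-3 and dod-6 and 0.811 between dod-3 and dod-19. Among the CUB-like genes it was 0.879 between dod-22 and dod-24, 0.847 between dod-17 and dod-24 and 0.842 between dod-17 and dod-22. These values describe 10 groups whose libraries are the same for every gene, so they carry no test. The 2 members below the filter, dod-20 and dod-21, had r of 0.816 on near-zero counts.

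The gene with the most like course outside the family was srlf-7 for dod-3 (r = 0.983), T12D8.5 for dod-6 (r = 0.978) and fil-2 for dod-19 (r = 0.973). For the CUB-like genes it was ugt-53 for dod-17 (r = 0.978), grd-5 for dod-22 (r = 0.967) and hpo-34 for dod-24 (r = 0.984). The closest to dod-23 was D1086.11 with r = 0.871, the lowest value among the 9 members. For dod-20 and dod-21 it was lmp-2 (r = 0.933) and Y23H5B.8 (r = 0.915). Each was picked as the highest r among all genes past the filter, over only 10 groups. High values are thus likely for any member, and they carry no test. With a prior count of 0.5 the gene picked changed for dod-3, dod-19, dod-21, dod-22 and dod-24. The plot of likeness gives all pairs of members.

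**Figure D4:**
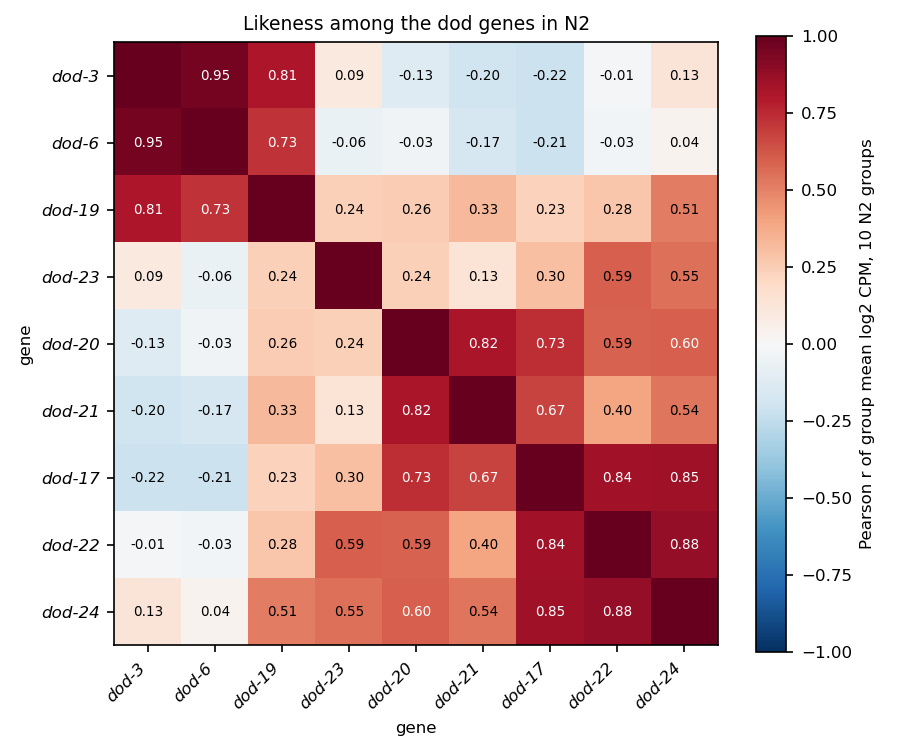
Pearson's r between pairs of the 9 dod genes over the group mean log2 CPM of the 10 groups of the N2 treatment table, as a description without a test (colour scale from -1 to 1). Values within the set of dod-3, dod-6 and dod-19 are 0.726 or more and those within the set of dod-17, dod-22 and dod-24 are 0.842 or more, and dod-23 has values of 0.595 or less with every other member.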

How the data were processed

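The authors deposited 3 tables of read counts per gene, made with featureCounts of Subread 2.0.2 on WBcel235, per the submitters' processing notes, and counted on Ensembl release 108 without strand, per the file headers. No aligner is given in the sources used here. Symbols and positions were looked up in Ensembl release 115, where all 46926 gene IDs matched. Counts were filtered with filterByExpr, scaled by TMM and tested with edgeR 4.0.16 in R 4.3.3 by the quasi-likelihood F test with Benjamini-Hochberg adjustment over all genes of a fit. The SE is the log2 fold change over the square root of F.

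The N2 treatment table was 1 fit of 10 groups, PX991 1 of 4, EU1 1 of 4 with a term for collection, and trials 2 and 3 1 of 5 ages with a term for trial. Differences between N2 and PX991 responses came from 1 fit of both strains at days 4 and 12, and DMSO levels from 1 fit of all strains at those ages. Low totals limit precision, and medians per set were 4.89, 3.37, 2.29 and 3.98 M counts. Alternatives were DESeq2 1.42.0, its size factors in edgeR, no filter, only the groups compared, a replicate block, and leaving out libraries. Among the EU1 libraries, same-numbered samples deviated together in 11 of 11 pairs (correlations from 0.105 to 0.458), in PX991 in 2 of 8 and in the N2 treatment table in 2 of 20. The library of the same number was the closest in 6 of 11 pairs in EU1, 2 of 8 in PX991 and 6 of 20 in N2. Replicates 4 to 6 of EU1 were collected at separate times, so this check cannot tell pairing by number from a shared collection. Of 199 pairs of replicates none was identical, and chi-square per degree of freedom was at least 2.21. The code was tested on simulated counts.

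The members and the gene lists (class I and class II targets, insulin pathway, pathogen response, and markers of intestine, muscle, neurons, hypodermis, oocytes and sperm) were chosen with earlier results of these data known. Named in the text are all members, daf-16, the 3 called genes of each target, pathway and response list with the largest change in N2 with SFN at day 12 and in PX991 against N2 at day 4, called neighbours, and the gene with the most like course per member (prior count 2). The same rule over the marker lists also gave the muscle genes tnt-2 (3.41), unc-27 (3.18) and unc-54 (2.75) at N2 day 12 (log2), and at day 4 in PX991 against N2 the intestinal genes ges-1 (-1.89) and nhx-2 (1.09), the oocyte genes perm-2 (-0.86), perm-4 (-0.80) and cpg-2 (-0.43), and sqt-3 of the hypodermis (1.93).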

Additional observations from a re-analysis of the deposited data

Results flagged for a closer look

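In groups of 4 to 10 libraries with a mean of at least 1 CPM, a limit chosen after the values were seen, the outermost library was set against the rest by Dixon's test. Of 166 such groups, 20 had an outlying library. The limits of that test give about 1 in 20 by chance only for independent groups of normally distributed values. These groups are CPM of genes that share libraries, so the number found cannot be set against that rate. For dod-19 these were EU1 DMSO day 4 replicate 4 at 1030 CPM (the others 179 to 485), trial 2 day 16 replicate 1 at 363 (186 to 193), trial 3 day 16 replicate 2 at 148 (97.5 to 106), trial 2 day 4 replicate 4 at 166 (274 to 278), N2 DMSO day 8 replicate 3 at 493 (678 to 712), trial 2 day 8 replicate 1 at 623 (220 to 273), PX991 DMSO day 12 replicate 4 at 163 (93.5 to 102) and PX991 SFN day 12 replicate 1 at 259 (177 to 180). For dod-24 they were EU1 SFN replicate 2 at 27 CPM at day 12 and at 25.6 at day 4, trial 2 day 12 replicate 3 at 19.8, N2 SFN day 12 replicate 1 at 8.68 and trial 2 day 2 replicate 4, the lowest, at 35.5.

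The outlying libraries of dod-6 were EU1 SFN day 12 replicate 2 at 267 CPM and trial 2 day 4 replicate 3, the lowest, at 21.6. Those of dod-23 were trial 2 day 8 replicate 2 at 155 CPM and PX991 DMSO day 12 replicate 1 at 103.8. Those of dod-21 were trial 2 day 4 replicate 3 at 4.1 CPM and N2 SFN day 4 replicate 4 at 2.65, and that of dod-22 was N2 DMSO day 4 replicate 3 at 4.15.

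Between N2 and PX991 the SFN response at day 12 differed for dod-6 by -2.54 and for dod-23 by 2.77 on the log2 scale, by the test of the difference itself. The change from day 4 to day 12 on DMSO differed for dod-3 by -3.78, for dod-6 by -1.54, for dod-23 by -2.75 and for dod-24 by -4.21, the last on 1 PX991 count at day 12.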

How the results depend on the processing

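Of 69 called member values, DESeq2's size factors in edgeR kept 69, DESeq2 68 and no filter 69, fitting only the groups compared kept 51 of 64, and a replicate block kept 58 of 58. No called value changed sign. The block changed no call in EU1, whose replicates 4 to 6 were collected at separate times. Elsewhere the samples share only a number, and it added dod-24 in N2 at day 16 (2.26, adjusted p = 0.0478 by edgeR), dod-23 in PX991 at day 4 (-0.88, 0.0187), dod-19 in PX991 ageing (-0.44, 0.0383) and dod-23 in the day 4 difference (-1.15, 0.0374), whose count of members called went from 0 to 1. Counts of members called with only the groups compared were 0 for N2 SFN at days 2 and 4, 1 for N2 ageing, 4 and 0 for PX991 SFN at days 4 and 12, 1 for the day 4 difference of SFN effects, 5 for N2 trials at day 4, and 5 and 4 for PX991 against N2 at days 4 and 12. With no filter they were 5 for N2 SFN at day 16, 3 and 5 for EU1 SFN at days 4 and 12, 1 for the day 4 difference, 5 and 4 for PX991 against N2, and 2 for PX991 against EU1 at day 12. DESeq2 gave 4 for PX991 SFN at day 4, 1 for N2 trials at day 4, 4 for PX991 against N2 at day 12 and 2 for PX991 against EU1 at day 12. Calls lost with only the groups compared were dod-24 at N2 day 2 (1.09) and day 8 (1.04), dod-17 (1.45), dod-19 (0.73) and dod-24 (0.97) at N2 day 4, dod-3 (1.48), dod-6 (0.98) and dod-23 (0.61) in N2 ageing, dod-3 (1.27), dod-19 (0.79) and dod-23 (0.92) in PX991 at day 12, dod-6 in the ageing difference (-1.60) and dod-6 against EU1 at day 4 (-1.73). DESeq2 lost dod-22 in the trials at day 4 (-1.39). These fits hold fewer samples, or model the counts otherwise, and the cause was not tested further. Leaving out 1 library kept 748 of 800 values. Members called then ran from 0 to 1, 1 to 4, 3 to 4, 5 to 6 and 3 to 4 for N2 SFN at days 2, 4, 8, 12 and 16, from 5 to 6 for N2 ageing, 1 to 2 and 0 to 3 for PX991 SFN, 5 to 6 for PX991 ageing, 0 to 0 and 2 to 3 for EU1 SFN, 0 to 2 and 2 to 2 for the differences of SFN effects, 3 to 4 for the ageing difference, 1 to 3, 6 to 6, 5 to 5 and 4 to 5 for the trials, 3 to 4 and 0 to 3 for PX991 against N2, and 4 to 5 and 1 to 1 against EU1. Over all genes, calls moved by more than 1.5 times with only the groups compared from 551, 1311, 449 and 2396 to 28, 41, 1287 and 4171 for N2 SFN at days 2, 4, 8 and 12, from 5723 to 2606 for N2 ageing, from 51 and 472 to 189 and 163 for PX991 SFN, from 47 to 20 for the day 4 difference and from 1857 to 1213 for the ageing difference. Without the pair of N2 DMSO libraries with the fewest genes they were 1124, 2313, 3809 and 3699 (2463 with them) for N2 SFN at days 2, 4, 12 and 16 and 89 and 1063 (618 with them) for the differences of SFN effects. DESeq2 gave 1145 and 2193 for N2 SFN at days 2 and 4, 96 for PX991 and 195 (28 by edgeR) for EU1 at day 4 and 187 for the day 4 difference, and no filter gave 697 for N2 SFN at day 8, 115 and 712 for PX991, 449 for EU1 at day 4 and 200 for the day 4 difference. DESeq2's size factors in edgeR gave 17 for EU1 at day 4, and for the day 4 difference 28, split 8 higher and 20 lower where the report's fit had 20 higher and 27 lower. Leaving out 1 library moved the all-gene calls beyond 1.5 times as follows. For N2 SFN they fell to 352, 183 and 278 at day 2 without SFN replicates 2, 3 and 4, to 755, 760 and 821 at day 4 without SFN replicates 1 and 2 and DMSO replicate 2, and to 270 and 278 at day 8 without SFN replicate 1 and DMSO replicate 3, and they rose to 2167 at day 4 without DMSO replicate 3. For PX991 SFN at day 4 they were 31 and 33 without DMSO replicates 3 and 4, and for EU1 1205 and 1290 (2155 with all) at day 12 without DMSO replicates 4 and 5, and 10 to 107 over 9 libraries at day 4. For the differences of SFN effects they were 17 to 426 over 14 libraries at day 4, and 390, 309 and 408 at day 12 without N2 SFN replicate 1, PX991 DMSO replicate 1 and PX991 SFN replicate 4. Without PX991 DMSO replicate 4 at day 4 they were 1299 (2000 with it) against N2, and without replicate 1 at day 12 1214 (2226 with it) against EU1. With a prior count of 0.5 in place of 2 the most like gene changed for dod-3, dod-19, dod-21, dod-22 and dod-24. Promoter elements were not analysed here. Depth limits dod-17, dod-20, dod-21 and dod-22, which hold few counts at the later ages.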
